A study of Mus musculus with 3 samples.

Results

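The transcription factors that hold mouse embryonic stem (ES) cells in the pluripotent state were followed in 3 RNA-Seq libraries, and comprised *Pou5f1*, *Sox2*, *Nanog*, *Klf2*, *Klf4*, *Klf5*, *Esrrb*, *Tbx3*, *Tfcp2l1* and *Zfp42*. These 10 genes were taken by symbol from the 24421 genes in the deposited counts, with no threshold on a measured value. The libraries were made from undifferentiated cells of the female EL 16.7 line (strain background F2:129S1/CastEiJx 129S1), and each stands for 1 condition. Control cells received a scramble shRNA and are labelled wild type, and NUP153 knockdown cells received shRNA-1 (KD-1) or shRNA-2 (KD-2), all as lentivirus. NUP153 is a nucleoporin of the nuclear basket, and the study asked how its loss affects chromatin and transcription in ES cells. KD-1 and KD-2 used different shRNAs and are not replicates of one another. All 3 cultures grew with LIF and 20% serum on γ-irradiated fibroblasts from Tg(DR4)1Jae/J mice, and all were selected with 2 μg/ml puromycin for 2 days before collection. DR4 feeder cells carry a puromycin resistance, and total RNA was depleted of ribosomal RNA without any removal of feeder cells that the labels or the methods describe.

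The pluripotency network is usually described in layers. *Pou5f1* (OCT4), *Sox2* and *Nanog* form the core, in which OCT4 and SOX2 bind side by side on DNA and activate one another's genes. The naive factors, which include the Krüppel-like factors KLF2, KLF4 and KLF5, the orphan nuclear receptor ESRRB, the T-box factor TBX3 and the Grainyhead-family factor TFCP2L1, connect the core to LIF and Wnt signals and are lost when cells leave the naive state. *Zfp42* (REX1) encodes a zinc finger protein whose expression marks naive cells and is shed early on exit from that state.

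The stretches of 250 bases before the annotated start were available for 8 of the 10 genes, and *Klf5* and *Tbx3* were not among them. They are taken from RefSeq on GRCm38.p6 and are shown 5′ to 3′ on the strand of the gene for *Nanog*, *Sox2* and *Zfp42*, since these windows hold the letters that OCT4 recognises. Each was taken at the most upstream RefSeq start of its gene, namely chr6:122707239-122707488 on the plus strand for *Nanog*, chr3:34649745-34649994 on the plus strand for *Sox2* and chr8:43307010-43307259 on the minus strand for *Zfp42*. Capitals mark ATGCAAA, which is part of the octamer of OCT4, on either strand. In *Nanog* they mark a longer run in which CATTGT, the letters of a SOX site, is followed by any 1 base and then by ATGCAAA, so that this joined motif overlaps both single ones.
Nanog: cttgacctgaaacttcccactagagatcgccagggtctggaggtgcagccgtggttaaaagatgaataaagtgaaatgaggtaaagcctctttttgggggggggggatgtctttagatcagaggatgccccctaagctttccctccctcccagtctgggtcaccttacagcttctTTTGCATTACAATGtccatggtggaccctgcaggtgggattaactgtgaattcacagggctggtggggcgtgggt
Sox2: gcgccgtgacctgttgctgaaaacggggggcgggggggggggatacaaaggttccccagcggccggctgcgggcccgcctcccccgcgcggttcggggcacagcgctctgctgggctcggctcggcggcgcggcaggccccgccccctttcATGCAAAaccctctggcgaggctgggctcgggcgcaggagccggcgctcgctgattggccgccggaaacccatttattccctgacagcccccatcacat
Zfp42: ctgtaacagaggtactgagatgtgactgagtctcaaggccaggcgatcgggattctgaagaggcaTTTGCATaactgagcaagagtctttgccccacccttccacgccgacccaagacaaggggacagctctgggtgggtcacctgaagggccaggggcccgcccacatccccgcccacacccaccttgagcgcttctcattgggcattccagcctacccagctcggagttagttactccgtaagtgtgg

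ATGCAAA was found in 3 of the 8 windows, and in 4.12% of 32851 windows of the same length before RefSeq starts. CATTGT was found in 1 of the 8, and in 10.7% of all windows. All motifs were searched on both strands. The joined SOX and octamer letters in *Nanog* lie on the minus strand at bases -75 to -62 from the start, and were found in only 2 of the 32851 windows. In *Sox2* the octamer letters lie on the plus strand at bases -99 to -93, and in *Zfp42* on the minus strand at bases -185 to -179. The letters CCNCNCCC, a common form of the box that Krüppel-like factors bind, were found in all 8 windows, and in 45.9% of all windows. AAGGTCA, the letters of an ESRRB site, was found in 0 of the 8 windows and in 4.08% of all windows. Binding was not measured in these libraries, and a match of letters is a description of the sequence alone.

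Values of the 3 libraries are given in the order control, KD-1, KD-2 where no library is named. The libraries held 72344726, 85258834 and 69839336 reads on genes. *Nup153* itself had 27870, 16451 and 11126 reads, with log2 fold changes against control of -0.99 for KD-1 and -1.43 for KD-2, in the direction of both knockdown labels. ES cell markers were present throughout. The 20 ES cell genes outside the lists of pluripotency regulators added up to 5840, 5986 and 4255 RPM, the reads out of every 1000000 reads on genes. The 15 fibroblast markers added up to 1656, 783 and 3465 RPM, and none of the 15 was at 0 in any library. The sums of the 3 libraries therefore lie in the opposite order for fibroblast markers and for ES cell genes. Most single ES cell genes followed the order of their sum in KD-2 but not in KD-1. Scaled to library totals, 9 of the 20 were above control and 11 below it in KD-1, while 19 were below it in KD-2. The values of both marker lists are given again beside the results they move with. With 1 library per condition there is no spread between replicates, so differences between libraries are given with 95% intervals that cover counting error only and with no p-value.

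All 10 pluripotency factors were detected in every library, and their levels per exon length spanned a wide range. *Zfp42* stood highest, at 608, 623 and 419 RPKM (RPM per kilobase of exon), and was lowest in KD-2. *Nanog* followed at 275, 323 and 251 RPKM, highest in KD-1. *Pou5f1* was at 218, 235 and 210 RPKM, with the same order of libraries, and *Sox2* was at 184, 161 and 166 RPKM, highest in control. These 4 genes ranked between 75 and 294 among the 23334 genes with a known exon length in all 3 libraries. The naive factors lay lower, beginning with *Klf4* at 53.0, 54.2 and 65.5 RPKM, the only gene of the 10 that was highest in KD-2.

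*Klf2*, *Esrrb* and *Tfcp2l1* lay close together, at 18.5, 16.0 and 14.8 RPKM in control. In KD-1 they were at 22.8, 21.8 and 21.1 RPKM, and the counting intervals of *Klf2* (22.1 to 23.6) and *Esrrb* (21.4 to 22.2) overlapped. In KD-2 they were at 22.0, 20.8 and 17.1 RPKM, and the intervals of *Klf2* (21.2 to 22.9) and *Esrrb* (20.4 to 21.3) overlapped again. *Tbx3* was at 8.94, 12.8 and 10.2 RPKM. *Klf5* was the lowest, at 1.74, 2.55 and 2.28 RPKM. The order of the 10 genes was the same in all 3 libraries. It depends on the exon length that is assumed, and with the longest coding transcript of each gene *Pou5f1* (359 RPKM in control) stood above *Nanog* (279 RPKM) and *Esrrb* (22.5 RPKM) above *Klf2* (18.5 RPKM) in each library.

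**Figure D1:**
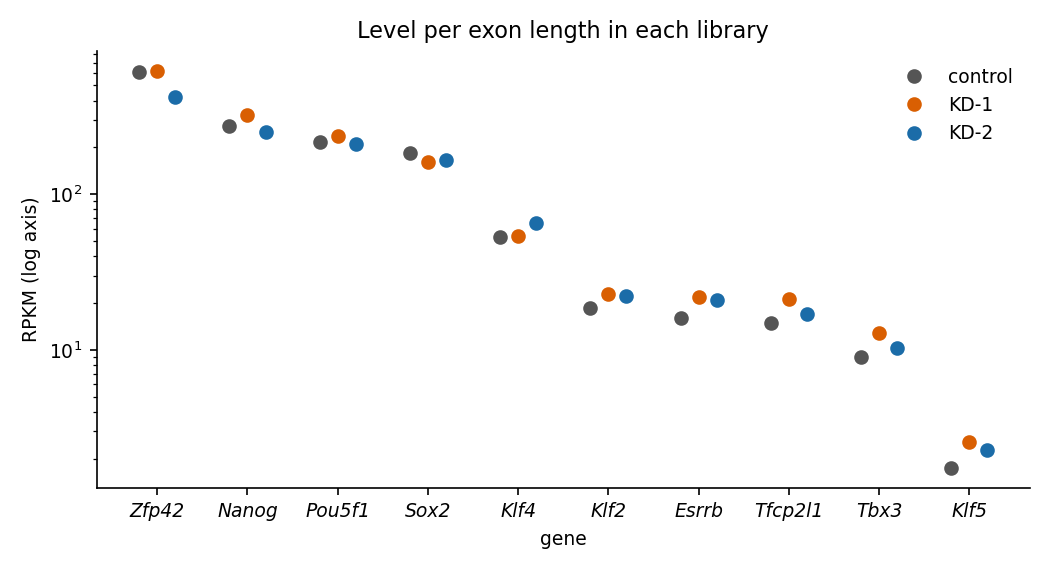
Level of each pluripotency factor in RPKM (log axis) in the control, KD-1 and KD-2 libraries, 1 point per library, with genes ordered by their level in control. From *Zfp42* at 608 RPKM to *Klf5* at 1.74 RPKM in control, the order of the genes is the same in the 3 libraries.

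Together the 10 genes took 0.313%, 0.339% and 0.277% of all reads on genes. On GRCm38 (GENCODE M21), *Pou5f1* lies at chr17:35506018-35510772, *Sox2*, which has a single exon, at chr3:34650405-34652461, and *Nanog* at chr6:122707489-122714633. *Klf2* lies at chr8:72319033-72321656, *Klf4* at chr4:55527143-55532466 and *Klf5* at chr14:99298691-99315036. *Esrrb* lies at chr12:86361117-86521628, *Tbx3* at chr5:119670669-119684724, *Tfcp2l1* at chr1:118627945-118685168 and *Zfp42* at chr8:43295063-43306980, and only *Klf4* and *Zfp42* are on the minus strand. Counts are over all exons of a gene, untranslated regions included. Reads may come from copies or overlapping genes for some of them. For *Pou5f1*, 10.1% of the 50-base stretches of its transcripts also occur in other transcripts (*Gm19553* and *Gm5712*), and *Gm19553* overlaps 14.1% of its exon bases on the opposite strand. For *Zfp42* the share was 8.52%, with *Zfp42-ps1*, and for *Nanog* it was 4.61%, with *Nanog-ps1* and others. For each of the other 7 genes the share was at most 1.01%. How these stretches were counted depends on the mapping and could not be followed here.

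In KD-1 compared to control, the naive factors other than *Klf4* were higher, the core factors differed less, and no gene of the 10 passed a fold change of 1.5. With 655 reads in control and 1131 reads in KD-1, *Klf5* was at a log2 fold change of 0.56 (interval 0.42 to 0.70) after upper-quartile scaling. *Tbx3* had 4286 and 7236 reads, a log2 fold change of 0.53 (0.47 to 0.58), and *Tfcp2l1* had 10104 and 16976 reads, a log2 fold change of 0.52 (0.48 to 0.56). *Esrrb* had 7005 and 11249 reads, a log2 fold change of 0.45 (0.41 to 0.50). These 4 log2 fold changes lay below the threshold, which is 0.58 on this scale. The interval of *Klf5* spans the threshold, and that of *Esrrb* ends at 0.50. *Klf2*, with 2469 and 3597 reads, was higher by less, at a log2 fold change of 0.31 (0.24 to 0.39).

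Among the core factors, *Nanog* had 44622 and 61737 reads, a log2 fold change of 0.24 (0.22 to 0.26). *Pou5f1* had 35405 and 45092 reads, a log2 fold change of 0.12 (0.10 to 0.14). *Sox2* had 27360 and 28219 reads and was the only one of the 10 that was lower in KD-1 after scaling, at a log2 fold change of -0.18 (-0.21 to -0.16). *Klf4*, with 11691 and 14099 reads, and *Zfp42*, with 82732 and 99896 reads, were both at a log2 fold change of 0.04. The signs of *Klf4* and *Zfp42* depended on the scaling, and with DESeq2's size factors both were at -0.02.

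Past a 1.5-fold change in KD-1 were 0 of the 10 genes, compared with 8.58% higher and 5.65% lower among the 16670 genes that averaged 10 or more reads. Among the 7881 deeply counted genes, which averaged 1000 or more reads, 1.19% were higher and 3.02% were lower by more than 1.5-fold. The median log2 fold change of the 10 genes was 0.28, beside 0.02 for the 16670 genes and -0.02 for the deeply counted ones. When the libraries were scaled to the ES cell genes, 0 of the 10 passed either, beside 7.35% of genes higher and 6.78% lower. Placed among the deeply counted genes, an order that library scaling cannot alter, *Klf5* had a higher log2 fold change than 98.7% of them. *Klf5* itself averaged fewer than 1000 reads, so it is not one of them and its counting interval is wider. *Tbx3* stood above 98.4%, *Tfcp2l1* above 98.3%, *Esrrb* above 97.3% and *Klf2* above 92.9%. *Sox2* stood above 18.6% only. Fibroblast markers were lower in KD-1 at the same time, 10 of 15 by more than 1.5-fold and with a median of -0.83, while the 20 ES cell genes had a median of 0.00. The part of the feeder cells in the KD-1 values was not tested, and in bulk RNA fewer cells of a type and less RNA per cell cannot be told apart.

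In KD-2 compared to control, *Zfp42* was lower by more than 1.5-fold, the 3 core factors were lower by less, and the KLF factors, *Esrrb*, *Tbx3* and *Tfcp2l1* were at or slightly above control. *Zfp42* had 82732 reads in control and 54998 in KD-2, a log2 fold change of -0.70 (-0.71 to -0.68), or 0.617 times the control level. *Sox2* had 27360 and 23802 reads, a log2 fold change of -0.31 (-0.33 to -0.28), and *Nanog* had 44622 and 39339 reads, a log2 fold change of -0.29 (-0.31 to -0.27). *Pou5f1* had 35405 and 32962 reads, a log2 fold change of -0.21 (-0.23 to -0.19). *Nanog*, *Pou5f1* and *Zfp42* were thus, with upper-quartile scaling, above control in KD-1 and below it in KD-2.

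Of the naive factors, *Klf5* had 828 reads in KD-2, a log2 fold change of 0.23 (0.08 to 0.38), and *Esrrb* had 8796 reads, a log2 fold change of 0.22 (0.18 to 0.27). *Klf4* had 13948 reads, at 0.15 (0.11 to 0.18), and *Klf2* had 2844 reads, at 0.10 (0.02 to 0.18). *Tfcp2l1*, with 11249 reads, was at 0.05 (0.01 to 0.09), and *Tbx3*, with 4740 reads, was at 0.04 (-0.02 to 0.10), an interval that includes no difference from control. With this scaling *Tbx3* and *Tfcp2l1* were lower in KD-2 than in KD-1, and with scaling to the ES cell genes, described next, both were higher in KD-2.

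Past a 1.5-fold change in KD-2 were 0 of the 10 genes in the higher direction and 1 in the lower direction. Of all 16670 genes, 17.0% were higher and 10.2% were lower by that much, and of the 7881 deeply counted genes 8.3% and 9.12%. The median log2 fold change of the 10 genes was 0.04, beside -0.02 for all genes and -0.16 for the deeply counted ones. *Zfp42* had a lower log2 fold change than 7591 of the 7881 deeply counted genes.

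The values in KD-2 depend on what the library is scaled to, more than those in KD-1. With library totals *Zfp42* was at -0.54 and no longer past 1.5-fold, and of all genes 23.6% were higher and 4.91% lower. The 20 ES cell genes outside the lists of pluripotency regulators had a median of -0.53 in KD-2, and 19 of them were lower than in control. Fibroblast markers were all higher there, 14 of 15 by more than 1.5-fold and with a median of 0.80. When the libraries were scaled to the ES cell genes instead of the upper quartile, the median of all genes in KD-2 moved to 0.53 and that of the 10 pluripotency factors to 0.59. On that scale *Klf5* (0.78), *Esrrb* (0.77), *Klf4* (0.70), *Klf2* (0.65), *Tfcp2l1* (0.60, and 0.46 for KD-1) and *Tbx3* (0.59, and 0.47 for KD-1) were higher by more than 1.5-fold, as were 45.7% of all genes, with 1.16% lower. *Pou5f1* was then at 0.34, *Nanog* at 0.26, *Sox2* at 0.24 and *Zfp42* at -0.15, so that the 3 core factors turned from below to above control. The part of the feeder cells in the KD-2 values was not tested.

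**Figure D2:**
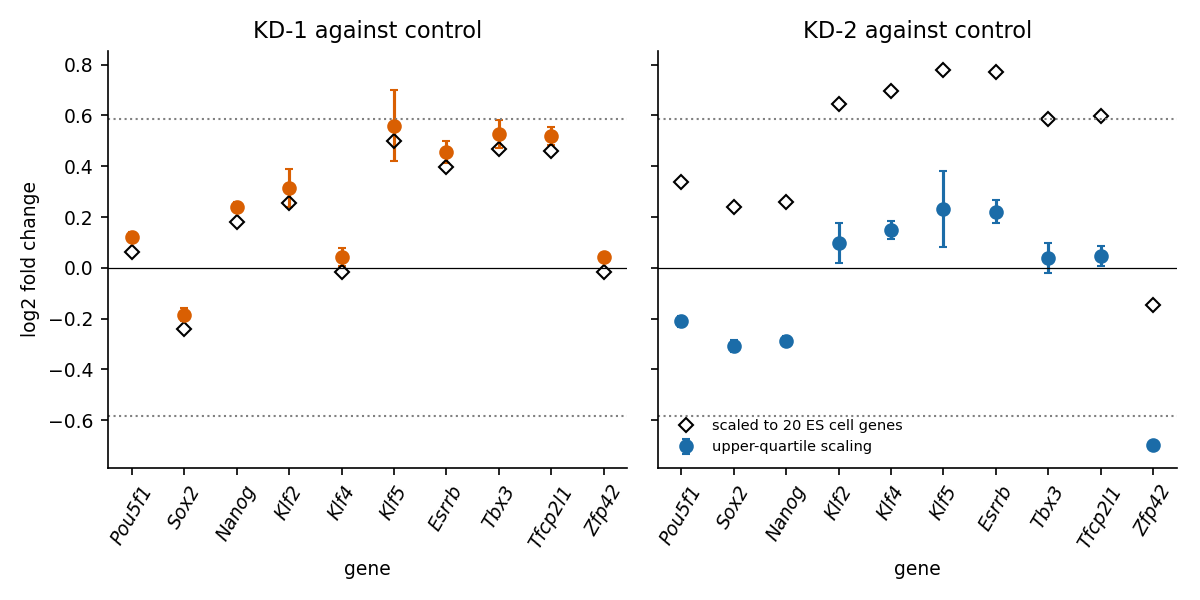
Log2 fold change of each pluripotency factor in KD-1 (left) and KD-2 (right) against control, 1 library each. Filled points are upper-quartile scaled with 95% counting intervals, open diamonds are scaled to 20 ES cell genes, and dotted lines mark a 1.5-fold change, which *Zfp42* in KD-2 passes at -0.70 and 6 diamonds pass in KD-2.

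The direct comparison of both knockdown libraries does not use the control. In KD-2 compared to KD-1, *Zfp42* was lower by a log2 fold change of -0.74 (-0.76 to -0.72), the 1 gene of the 10 past 1.5-fold. With library totals it was at -0.57 and 0 of the 10 passed, and scaled to the ES cell genes it was at -0.13. Of all 16670 genes, 16.2% were higher and 13.9% were lower by that much, and of the deeply counted ones 10.9% and 9.25%. *Nanog* was at -0.53 (-0.55 to -0.51), *Tbx3* at -0.49 (-0.54 to -0.44) and *Tfcp2l1* at -0.47 (-0.51 to -0.44). *Pou5f1* and *Klf5* were both at -0.33, *Esrrb* at -0.23, *Klf2* at -0.22 and *Sox2* at -0.12. *Klf4* was the only gene of the 10 that was higher in KD-2 than in KD-1, at 0.11 (0.07 to 0.14). The median of the 10 genes was -0.33, beside -0.12 for all genes and -0.18 for the deeply counted ones. In the same comparison 15 of 15 fibroblast markers were higher by more than 1.5-fold, with a median of 1.63, and 19 of 20 ES cell genes were lower, with a median of -0.62. The part of the feeder cells in these differences, that of *Klf4* included, was not tested. With library totals *Sox2* was also above 0, at 0.04. With scaling to the ES cell genes the median of the 10 genes was 0.28 and that of all genes 0.48, and *Klf4* (0.71) was the 1 gene past 1.5-fold, beside 42.8% of genes higher and 1.7% lower.

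Since the level of each factor relative to the others does not depend on library scaling, reads were also expressed per 100 reads of *Pou5f1* in the same library. *Esrrb* had 19.8, 24.9 and 26.7 such reads, a log2 difference from control of 0.33 for KD-1 (counting SE 0.02) and 0.43 for KD-2 (SE 0.03). *Klf5* had 1.85, 2.51 and 2.51 reads, a log2 difference of 0.44 in both knockdowns (SE 0.07 and 0.08). *Tfcp2l1* had 28.5, 37.6 and 34.1 reads, at 0.40 and 0.26 (SE 0.02 each). *Tbx3* had 12.1, 16.0 and 14.4 reads, at 0.41 and 0.25 (SE 0.03 each), and *Klf2* had 6.97, 7.98 and 8.63 reads, at 0.19 and 0.31 (SE 0.04 each). These 5 naive factors were higher relative to *Pou5f1* in each knockdown library than in the control library, which both comparisons share. Of the 7881 deeply counted genes, 23.5% were higher relative to *Pou5f1* in KD-1 and 55.5% in KD-2, so that in KD-2 such a direction was that of most genes, with a median log2 difference of 0.05.

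*Klf4* differed between the knockdowns, with 33.0, 31.3 and 42.3 reads per 100 *Pou5f1* reads. That is the order of the fibroblast markers (1656, 783 and 3465 RPM), and the part of the feeder cells in any of these ratios was not tested. *Zfp42* had 234, 222 and 167 reads, with log2 differences of -0.08 (KD-1) and -0.49 (KD-2), each with an SE of 0.01. *Sox2* was lower relative to *Pou5f1* in both, with 77.3, 62.6 and 72.2 reads, at -0.30 (KD-1) and -0.10 (KD-2), each with an SE of 0.02. *Nanog*, with 126, 137 and 119 reads, was above control in KD-1 and below it in KD-2. The errors cover counting only, and how much such ratios vary between cultures of the same kind could not be measured.

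Both knockdown libraries were also compared to control as a group, which is the only test of the condition that these libraries allow. The spread then comes from the difference of KD-1 and KD-2 alone, with 1 residual degree of freedom, and says nothing of the spread between control cultures. With edgeR's quasi-likelihood test, 0 of the 10 genes had an adjusted p under 0.05, and 0 had an unadjusted p under 0.05, as was also the case with the Wald test of DESeq2. Over all 21164 genes with a read the test called 2 (0.00945%), *Lars2* and *Mir6236*, and 264 (1.25%) had an unadjusted p under 0.05 (0.387% with DESeq2). With TMM normalization it called 0.0189% of genes and with a minimum mean of 10 reads 0.006%, and again 0 of the 10. *Klf5* had the smallest p of the 10, at a fitted log2 fold change of 0.40 (unadjusted p = 0.406 with edgeR), and *Nanog* was at -0.00039. *Nup153*, the target of both shRNAs, was not called either, at a log2 fold change of -1.19 (unadjusted p = 0.00855 with edgeR, adjusted p = 1.00).

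Other regulators of pluripotency were read beside the 10 genes. In KD-1, 11 of 12 were above control and 2 were past 1.5-fold (8.58% of all genes were higher), with a median log2 fold change of 0.16. *Nr0b1* (DAX1), a nuclear receptor cofactor of the network, had 5325, 9913 and 8651 reads, with log2 fold changes of 0.67 and 0.59, past 1.5-fold in both knockdowns. *Utf1*, a chromatin factor of ES cells, had 127, 240 and 308 reads, at 0.69 and 1.17. *Nr5a2*, an orphan receptor that can take the place of OCT4 in reprogramming, had 4829, 5647 and 3250 reads and had the lowest log2 fold change of the list in both, at -0.0028 and -0.68. In KD-2, 9 of 12 were below control, with a median of -0.17, 3 past 1.5-fold in the higher and 2 in the lower direction (17.0% and 10.2% of all genes). This direction depended on the scaling, with 6 of 12 below control and a median of -0.01 with library totals. Scaled to the ES cell genes, 2 of 12 were below control, with a median of 0.38. Fibroblast markers were higher in KD-2 (14 of 15 past 1.5-fold), and the part of the feeder cells was not tested. *Prdm14*, which shields naive cells from FGF signalling, was at 0.43 (KD-1) and -0.35 (KD-2).

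The ES cell genes outside the lists of pluripotency regulators lay on both sides of control in KD-1. Of the 20, 11 were above control and 9 below it in KD-1, 0 past 1.5-fold, and in KD-2 1 was above and 19 below, 7 past 1.5-fold, beside 10.2% of all genes lower. With library totals 4 of the 20 were lower by that much in KD-2, where fibroblast markers were higher (14 of 15 past 1.5-fold), and the part of the feeder cells was not tested. *Dppa3* (STELLA), a maternal factor expressed in a part of naive cells, had 5419, 4567 and 1912 reads, at -0.48 and -1.61, the lowest of the list in both. *Dnmt3l*, a cofactor of the de novo DNA methyltransferases, was the highest in both, at 0.51 and 0.22. The Nodal antagonists *Lefty1* and *Lefty2* were at -1.13 and -1.22 in KD-2 and at -0.19 and -0.17 in KD-1. *Zfp42*, at -0.70 in KD-2, lay near the median of this list (-0.53) and nearer to it than to that of the 10 factors (0.04). *Sox2* (-0.31) and *Nanog* (-0.29) were also nearer to the median of this list, so this is not particular to *Zfp42*.

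Genes of the signals that act on the naive factors were also read. LIF activates STAT3 through LIFR and GP130 (*Il6st*), and *Klf4* and *Tfcp2l1* are known targets of STAT3. Of 6 genes of this pathway, 5 were below control in KD-1 and 5 above it in KD-2, with medians of -0.13 and 0.34 and 0 past 1.5-fold in either. In KD-2, 2 of the 6 passed 1.5-fold with library totals and 5 of the 6 when scaled to the ES cell genes, where their median was 0.89. On these scales 23.6% and 45.7% of all genes were higher by that much, and the median of all genes was 0.14 and 0.53. *Stat3* had 5658, 6079 and 8768 reads, with log2 fold changes of -0.13 and 0.52, and *Jak1*, the kinase that phosphorylates it, was at -0.13 and 0.56. *Il6st* was at -0.44 and 0.27, and the more specific receptor *Lifr* was below control in both, at -0.26 and -0.41. *Socs3*, a feedback inhibitor that STAT3 induces, was above control in both, at 0.20 and 0.41. The order of *Stat3*, *Jak1* and *Il6st* over the libraries, lowest in KD-1 and highest in KD-2, is that of the fibroblast markers, and the part of feeder cells in it was not tested.

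Of 5 genes of Wnt and GSK3 signalling, 0 were past 1.5-fold in either knockdown. Wnt signals relieve the repression of *Esrrb* by TCF3 (*Tcf7l1*). *Tcf7l1* itself had 258, 342 and 345 reads, at 0.18 (KD-1) and 0.31 (KD-2), and β-catenin (*Ctnnb1*) was at 0.06 and -0.15. *Gsk3a* was at 0.28 and -0.13. Scaled to the ES cell genes, 3 of the 5 were higher by more than 1.5-fold in KD-2, with a median of 0.69, beside the 45.7% of all genes. Of 9 genes of FGF and ERK signalling, which drives cells out of the naive state, 0 were past 1.5-fold as well. In KD-2, 3 of these 9 passed with library totals and 6 of them when scaled to the ES cell genes, where their median was 0.78, beside 23.6% and 45.7% of all genes. The receptor *Fgfr1* was at 0.38 and 0.40, *Fgfr2* was at -0.44 and 0.52, the ERK phosphatase *Dusp6* was at 0.12 and 0.55, and *Etv5* was at 0.03 and -0.40. *Fgfr2* was thus lowest in KD-1 and highest in KD-2, as were the fibroblast markers (medians of -0.83 and 0.80), and the part of feeder cells in it was not tested.

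Genes of the primed or formative state, which replaces the naive state on exit, had median log2 fold changes of 0.07 (KD-1) and -0.08 (KD-2). These medians include sparsely counted genes, and over the genes that averaged 100 or more reads they were -0.13 and -0.59. *Fgf5*, the most used marker of this state, had 16, 20 and 19 reads, and *Pou3f1* (OCT6) had 44, 59 and 49. *Otx2* had 2546, 2695 and 1674 reads, at -0.15 and -0.71, and *Dnmt3b* was at -0.20 and -0.66. *Sall2* was the highest of the list among genes that averaged 100 or more reads, at 0.61 in both knockdowns, and *Lin28b* the lowest, at -0.48 and -0.76. In KD-1 1 of the 10 genes was higher and 0 were lower by more than 1.5-fold, and in KD-2 2 were higher and 4 were lower. Of all genes 8.58% were higher and 5.65% lower in KD-1, with 17.0% and 10.2% for KD-2. Scaled to the ES cell genes 0 of the 10 genes were past 1.5-fold in KD-1. With library totals the KD-2 median was 0.08, with 1 gene lower past 1.5-fold. Scaled to the ES cell genes it was 0.47, with 4 genes higher and 0 lower. Fibroblast markers were higher in KD-2 (14 of 15 past 1.5-fold), and the part of the feeder cells was not tested.

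Early lineage regulators were counted by few reads. The 12 genes together had 722, 1141 and 989 reads, which is 9.98, 13.4 and 14.2 RPM. Of the 10 genes that averaged 10 or more reads, 4 (KD-1) and 6 (KD-2) were higher by more than 1.5-fold, and 0 were lower in either. Of all genes 8.58% and 17.0% were higher. The counting interval included 0 for *Sox17* in KD-1 and for *T* and *Sox1* in KD-2. Most of the 10 averaged fewer than 100 reads. The share of all genes falls with depth, to 1.19% (KD-1) and 8.3% (KD-2) of the deeply counted ones, and no share at like depth is given. Scaled to the ES cell genes, 7 of the 10 passed in KD-2, with a median of 1.16, beside 45.7% of all genes. Fibroblast markers were lower in KD-1 (10 of 15 past 1.5-fold) and higher in KD-2 (14 of 15). The part of the feeder cells was not tested. Over *Eomes* and *Pax6*, which alone averaged 100 or more reads, the median was 0.50 instead of 0.28 in KD-1, and 0.13 instead of 0.61 in KD-2. *Eomes*, a T-box factor of mesendoderm and trophoblast, had 249, 463 and 406 reads, at 0.66 and 0.60. *Pax6*, a neural regulator, had 273, 403 and 232 reads, at 0.33 and -0.34. *Cdx2*, a trophoblast regulator that OCT4 represses, had 6, 25 and 24 reads, a difference that rests on few reads.

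The genes whose log2 fold changes in KD-1 and KD-2 lay nearest to those of the core factors were searched among 7872 other deeply counted genes. Likeness was measured as the distance between both pairs of log2 fold changes. Nearest to *Pou5f1* were *Rapgef6* (distance 0.003), *Zfp329* (0.008) and *Prpf8* (0.009). Nearest to *Sox2* were *Mpdu1* (0.003), *Fam204a* (0.003) and *Ndufb10* (0.004), and nearest to *Nanog* were *Zfp646* (0.004), *Xpo6* (0.006) and *Snx30* (0.007). The measure rests on 3 libraries and on 1 control that both log2 fold changes share. These distances are smaller than the counting intervals of the core factors, such as 0.10 to 0.14 for *Pou5f1* in KD-1. Counting error therefore leaves the choice and order of the neighbours unresolved, and they are a description of these libraries alone.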

How the data were processed

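RNA-Seq reads of 50 bp from 3 libraries (control, KD-1, KD-2) were trimmed by the authors with Trim Galore 0.4.1 and mapped to mm10 with TopHat 2.1.1. Raw read counts per gene were deposited by the authors without normalization, from reads above a mapping quality that the methods state. The methods name featureCounts and the submitters' processing notes name HTSeq. Reads outside of genes made up 21.5% to 24.1% and ambiguous reads 1.45% to 1.65% of each library, and these summary lines were left out. The counted strand is not given in the sources used here.

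KD-1 and KD-2 were assigned by the shRNA number in the labels. Libraries were scaled with edgeR 4.0.16 (upper quartile) in R 4.3.3. Log2 fold changes were computed after adding 0.5 reads, for genes that averaged 10 or more reads, and 1.5-fold is the threshold of the study's methods. Intervals of 95% are exact (Clopper-Pearson) and cover counting error only. Both knockdown libraries were tested against control with edgeR's quasi-likelihood test and, as an alternative, with DESeq2 1.42.0, both with Benjamini-Hochberg adjustment over all genes tested. RPKM used all exon bases of GENCODE M21 (GRCm38), which matched 23334 symbols. Other steps used numpy 2.4.6, scipy 1.17.1 and pandas 2.3.3 in Python 3.11.15, with matplotlib 3.10.9 for plots. The quasi-likelihood test alone was run on simulated counts, with the same changes set in both knockdown libraries. Unlike there, KD-1 and KD-2 differ here, so that run does not show what the test can detect in these libraries.

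The 10 genes, the gene lists and the tests were chosen with earlier results of these data known. Named beside the 10 genes and *Nup153* were the highest and lowest log2 fold changes of each list in each knockdown, among genes that averaged 100 or more reads. The fibroblast markers were left out of this naming. Also named were the 3 genes nearest to *Pou5f1*, *Sox2* and *Nanog*, and examples chosen after their values were seen. The alternatives were other scalings, minimum means and pseudocounts, a fold change above 2 and, added after the data were seen, transcript length.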

Additional observations from a re-analysis of the deposited data

How the results depend on the processing

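In KD-1 the median log2 fold change of the 10 genes was 0.21 with DESeq2's size factors and 0.22 when scaled to the ES cell genes, and 0 of the 10 passed the fold threshold under any setting tried. In KD-2 the median was 0.04, and became 0.084 with TMM normalization, 0.080 with DESeq2's size factors, 0.11 with the upper quartile of genes that averaged 10 or more reads, 0.20 with library totals and 0.59 when scaled to the ES cell genes. In KD-2 compared to KD-1 it was -0.33, and became -0.27 with TMM normalization, -0.23 with DESeq2's size factors, -0.28 with the upper quartile of genes that averaged 10 or more reads, -0.16 with library totals and 0.28 when scaled to the ES cell genes. In both of these comparisons 1 of the 10, *Zfp42*, was lower past the threshold, and with library totals, with scaling to the ES cell genes and with a fold change above 2 this count was 0. Scaled to the ES cell genes, 6 of the 10 were past 1.5-fold higher in KD-2 than in control and 1 (*Klf4*) was past 1.5-fold higher in KD-2 than in KD-1, with 9 of the 10 above 0 in each of these comparisons.

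Over all genes, 1430 were higher and 942 lower by more than 1.5-fold in KD-1. In KD-2 these counts were 2841 and 1701, and 2698 and 2318 against KD-1. A mean of at least 100 reads left 479 and 550 in KD-1 and 1745 and 1107 for KD-2, with 1389 lower in KD-2 compared to KD-1. A fold change above 2 left 506 and 256, 898 and 310, and 1320 and 522. DESeq2's size factors gave 1197 and 1152 in KD-1, and 3183 and 1553 in KD-2 compared to KD-1. TMM normalization gave 2968 and 1871 in that comparison. Library totals gave 3942 and 819 in KD-2, and 3536 and 1221 against KD-1. The upper quartile of genes that averaged 10 or more reads gave 3231 and 1255 in KD-2. Scaled to the ES cell genes, 1225 and 1131 were counted in KD-1, 7613 and 193 for KD-2, and 7132 and 284 against KD-1. The causes of these shifts, other than the fewer genes compared and the higher threshold, were not tested.

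With both knockdown libraries as a group, the quasi-likelihood test called 2 genes, 4 with TMM normalization and 1 with a mean of at least 10 reads, and the Wald test of DESeq2 called 2 others, *Ipw* and *Taf7l*, which were also the 2 added with TMM normalization. None of these genes was one of the 10, whose adjusted p was 1.00 with edgeR and with DESeq2. Leaving out 1 knockdown library leaves 1 library against 1, with the values given for each knockdown in the text and no test. No paired analysis was possible because each condition has 1 library. The depth of 655 reads for *Klf5* in control makes its interval the widest of the 10.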
